A study of Mus musculus with 4 samples.

Results

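The genes described here are the early growth response (EGR) factors Egr1, Egr2 and Egr3, the NAB corepressors Nab1 and Nab2, and the immediate-early genes Ier2, Ier5, Klf4 and Klf6. They are 9 of the 26322 genes in a table of gene expression from MC38 cells, a mouse colon cancer line. The 9 were taken from that table by symbol and were chosen from their levels in sgCbfb and sgNT libraries, with the contrast between these groups already known. Their differences between the groups are therefore given as a description, and nothing is supported with a test of them. Of the 9, 8 passed the filter on low values described below, and Egr3 did not.

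MC38 cells were electroporated with Cas9 protein complexed either with a non-targeting guide (labelled WT, here sgNT) or with a single guide against Cbfb (labelled CbfbKO, here sgCbfb). Cells were collected at least 1 week later. Both groups went through electroporation and carried no other treatment named in the labels. Each group holds 2 libraries, and nothing in the labels says whether they came from separate electroporations or separate cultures, so the spread between them may be technical and the p-values below measure only that spread. The labels name no clone.

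EGR1, EGR2 and EGR3 are zinc finger transcription factors that bind GC-rich sites and are switched on quickly when growth factors or stress signal through MAP kinases to serum response factor (SRF) and its ETS partners. NAB1 and NAB2 bind these EGR proteins and repress their targets, in part through the chromatin-remodelling complex NuRD. Nab2 is itself an EGR target, which closes a feedback loop. Ier2 and Ier5 are induced by the same signals, and KLF4 and KLF6 are zinc finger factors of the Krüppel-like family with roles in epithelial differentiation and growth control. CBFβ is the partner that stabilises binding of RUNX transcription factors to DNA.

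Promoter windows were read from RefSeq (GRCm38.p6, 250 bases before to 50 after a start) for 6 of the 9 genes, which were Egr2, Nab1, Nab2, Ier5, Klf4 and Klf6. They were searched on both strands for the EGR motifs GCGTGGGCG and GCGGGGGCG, the RUNX motif TGTGGT, the CRE motif TGACGTCA and the CArG box, which SRF binds. Matches were found for Egr2, Nab1 and Klf4, and no match overlapped another motif. No window of the 6 held TGTGGT or TGACGTCA, motifs that 16.8% and 1.79% of all 32851 windows hold. A match describes letters in these windows and not a bound site, and the absence of a match says nothing of sequence outside them. The EGR and CArG matches are shown because these are the motifs that EGR factors and SRF bind. Each is printed with 10 bases on either side, on the strand of the gene, with the match in capitals.

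Nab1 upstream match: gccccgcggcCGCCCACGCcgggatctgc
Nab1 middle match: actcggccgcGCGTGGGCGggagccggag
Nab1 downstream match: gcggggcgggGCGGGGGCGgcggaggtgg
Klf4 match: gcccctccctCGCCCCCGCccccacgtgc
Egr2 first match: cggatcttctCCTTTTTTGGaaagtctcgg
Egr2 second match: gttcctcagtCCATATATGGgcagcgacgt

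The Nab1 lines lie on the minus strand at chr1:52500571-52500599, chr1:52500539-52500567 and chr1:52500468-52500496, with matches that begin at positions -141, -109 and -38 from the RefSeq start. All of them fall in an exon of the longer GENCODE transcript Nab1-201, which starts further upstream. The upstream match reads GCGTGGGCG on the opposite strand, the middle match reads it on the gene's strand, and the downstream match is GCGGGGGCG. GCGTGGGCG occurs in 0.612% of all windows, and 7 windows hold it 2 or more times. The Nab1 window is 81.7% G and C, against a mean of 53.8% over all windows. Of the 193 windows at least as rich in G and C, 5 (2.59%) hold GCGTGGGCG. The Klf4 line lies on the minus strand at chr4:55532651-55532679 and holds GCGGGGGCG on the opposite strand, a motif found in 2.91% of windows. The Egr2 lines lie on the plus strand at chr10:67537484-67537513, within 1 of the 5 windows of Egr2, and at chr10:67537787-67537816, within 3 of them. Each holds a CArG box, which 1.63% of windows have.

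Libraries were made by 3′ mRNA sequencing, which reads transcript ends, so a gene's reads do not scale with its length. Levels set side by side between genes still depend on how reads were assigned to each gene. Levels are in log2 CPM (log2 of counts scaled to a common library total), as the authors deposited them, with a value of -0.79 for a gene without reads. The libraries held between 3189035 and 3907936 reads. Cbfb, the targeted gene, was at 41.5% of its sgNT level in sgCbfb cells (295 and 285 reads in sgNT, 125 and 125 in sgCbfb, limma, Benjamini-Hochberg adjusted p = 1.76e-07). This mRNA level does not measure the protein, whose deletion in MC38 cells the paper checked by immunoblot. The test took in the 12207 genes whose log2 CPM reached 0 in 2 or more libraries. Of these, 192 passed an adjusted p of 0.05 with a higher and 153 with a lower level in sgCbfb, and 174 were higher and 242 lower in voom with median-ratio scaling. With a library left out, its group held a single library and the spread came from the other group alone. Calls kept or lost in such fits, here and below, therefore do not show that a gene depends on that library. The Cbfb difference was -1.125 without sgCbfb replicate 1 and -1.413 without replicate 2. The labels call the cells colorectal cancer, but the listed epithelial markers of colon were nearly absent. Of 13 such markers 6 had no reads in any library, Epcam had at most 1 read and Cdh1 at most 2, and their summed level was at most 2.30 CPM. The 9 mesenchymal markers summed to 2559 and 2703 CPM in sgNT and to 2250 and 2351 in sgCbfb. Vim, an intermediate filament gene, was at 11.26 and 11.08 log2 CPM, and Col3a1, a fibrillar collagen gene, fell by 0.90 log2 units (limma, adjusted p = 2.46e-06). Of 9 immune cell markers 7 had no reads, and the list summed to at most 1.54 CPM. Of the mesenchymal markers 6 were tested, 4 with a positive difference (Fn1, a matrix protein gene, among them at 0.10) and 2 with a negative one, Vim and Col3a1, and their median was 0.15. The part of the mesenchymal marker levels in the results below was not tested.

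Egr1 was the only EGR gene with more than a few reads. It lies on the plus strand at chr18:34859823-34864984 (GRCm38, GENCODE M21) and has 2 exons. It was at 4.30 and 4.41 log2 CPM in the sgNT libraries (65 and 69 reads) and at 4.19 and 4.05 in the sgCbfb libraries (69 and 51 reads). The sgCbfb libraries were the lower pair, by a narrow gap. The group means were 4.36 ± 0.077 for sgNT and 4.12 ± 0.098 for sgCbfb (SD, n = 2 each), a difference of -0.24 on the log2 scale (standard error 0.20), or 84.9% of the sgNT level. Counting error alone gives this difference a standard error of 0.18, so its size is poorly fixed at this depth. Over the 4 libraries Egr1 ranked at the 47.4th percentile of the tested genes, close to the middle of the range. In bulk RNA of an edited population, fewer cells expressing a gene and less RNA in each cell cannot be told apart, here and for the genes below.

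Egr2, at chr10:67535475-67542188, is best known for its role in myelination and in lymphocytes. It had 5 and 1 reads in sgNT and 2 and 3 in sgCbfb. Its sgNT libraries were at 1.04 and -0.19 log2 CPM and its sgCbfb libraries at 0.12 and 0.60, so the sgCbfb values lay between those of sgNT. The difference of -0.060 (standard error 0.54) changed sign when a library was left out, to 0.55 without sgNT replicate 1 and to 0.18 without sgCbfb replicate 1. Egr3, at chr14:70077203-70082614, had 0 reads in each library. Over the 13828279 reads of all libraries a count of 0 allows a level of up to 0.217 CPM, which covers counting error only. Egr4, the remaining family member, was also without reads.

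**Figure D1:**
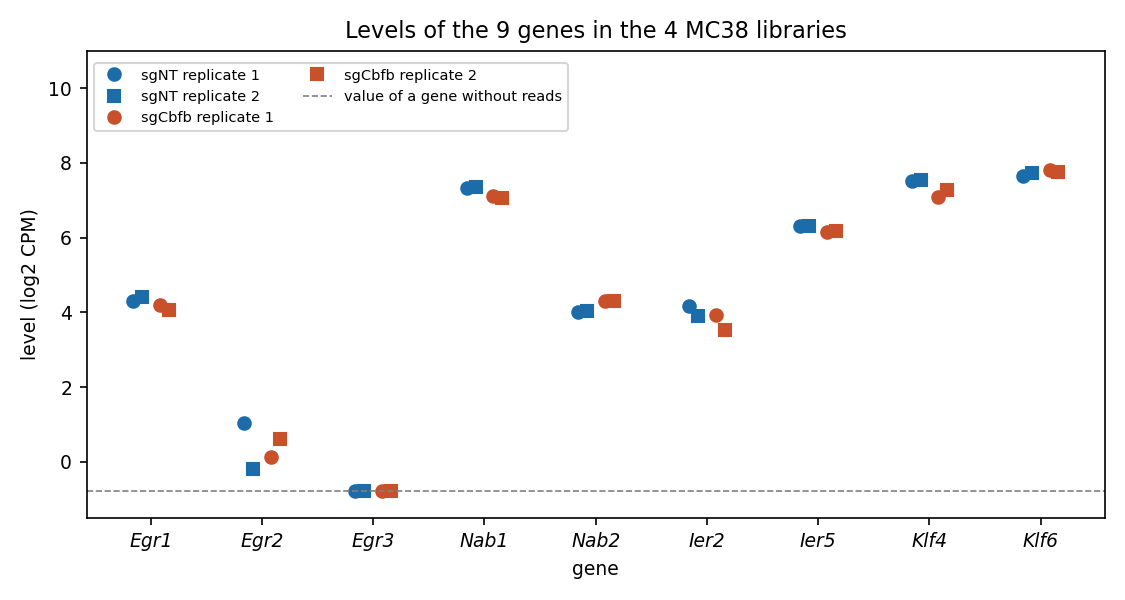
Level of each of the 9 genes in log2 CPM (vertical axis) in the 2 sgNT libraries (blue) and the 2 sgCbfb libraries (orange), with circles for replicate 1 and squares for replicate 2. Egr3 lies on the dashed line at -0.79, the value of a gene without reads, Egr2 lies just above it with overlapping groups, and Klf6, Klf4 and Nab1 are the highest.

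The corepressors were unequal in level, and their differences had opposite signs. Nab1, whose window holds 3 of the EGR matches printed above, lies on the minus strand at chr1:52457294-52500679 and has 8 exons. It was at 7.33 and 7.35 log2 CPM in sgNT (543 and 541 reads) and at 7.11 and 7.07 in sgCbfb (538 and 427 reads). Its replicates were close together, and the sgCbfb libraries were below the sgNT libraries by more than the replicates differed. The group means were 7.34 ± 0.015 for sgNT and 7.09 ± 0.028 for sgCbfb (SD, n = 2 each), a difference of -0.25 (standard error 0.080), which leaves 84.4%. Nab2, on the minus strand at chr10:127660918-127668568 with 7 exons, was at 4.02 and 4.04 in sgNT (53 reads in each library) and at 4.31 and 4.30 in sgCbfb (75 and 61 reads). Here the sgCbfb libraries were above the sgNT libraries, again without overlap. The means were 4.03 ± 0.018 and 4.30 ± 0.0033 (SD, n = 2 each), a difference of 0.27 (standard error 0.20). The SDs understate the error here, since counting alone gives the Nab2 difference a standard error of 0.19.

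The balance of the corepressor mRNAs was also read within each library, where scaling to library totals plays no part. Nab2 made up 8.89% (53 of 596 reads, 95% Wilson interval 6.86 to 11.4%) and 8.92% (53 of 594, 6.89 to 11.5%) of NAB reads in the sgNT libraries. In the sgCbfb libraries it made up 12.2% (75 of 613, 9.87 to 15.1%) and 12.5% (61 of 488, 9.86 to 15.7%). Nab1 thus had 10.2 reads for each Nab2 read in both sgNT libraries, and 7.17 and 7.0 in the sgCbfb libraries. The intervals cover counting error only, and those of sgNT and sgCbfb overlapped. The share of Egr1 among the reads of Egr1, Nab1 and Nab2 had no such gap between groups, with 9.83% and 10.4% in sgNT and 10.1% and 9.46% in sgCbfb.

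Other genes overlap Nab2 in the annotation, which bears on how its reads were assigned. The last 40 bases of Nab2 at its 3′ end overlap an exon of Stat6 on the opposite strand, and Nemp1 and the antisense transcript Gm16229 overlap it further upstream. The use of strand in counting is not given in the sources used here, and without it reads from opposite strands cannot be told apart. Stat6, a transcription factor of interleukin signalling, was at 5.11 and 5.20 log2 CPM in sgNT and 5.12 and 5.08 in sgCbfb. Nemp1, a nuclear envelope protein gene, was at 3.96 and 4.31 in sgNT and 4.15 and 3.85 in sgCbfb. Both had overlapping groups, unlike Nab2, and the part of shared reads in the Nab2 difference was not tested. Gm16229 was not analysed here, and no gene of the annotation overlaps the other 8 genes.

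**Figure D2:**
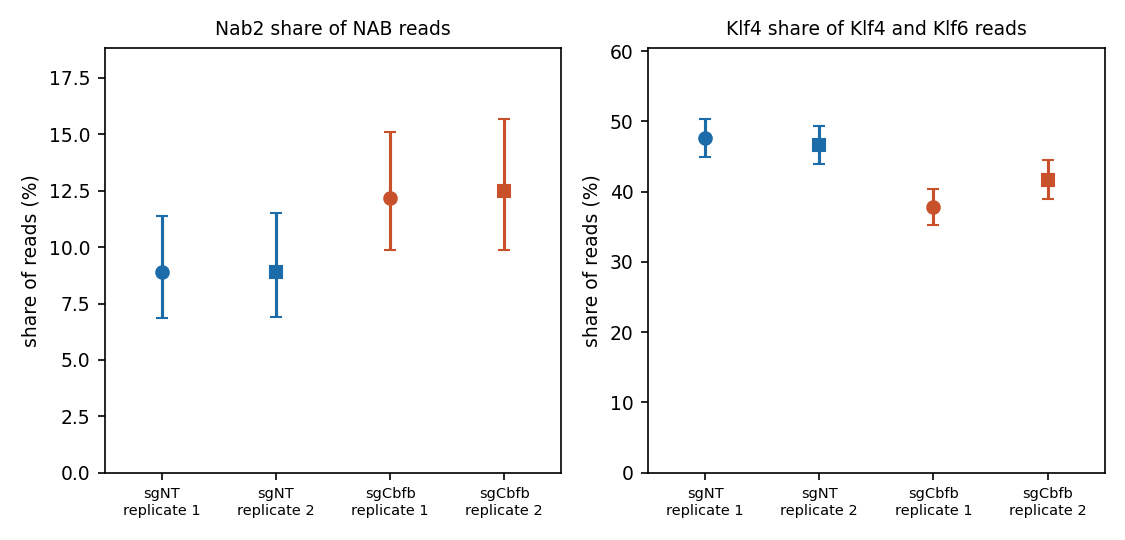
Share of reads in each library, in percent, that Nab2 takes of Nab1 and Nab2 reads (left) and that Klf4 takes of Klf4 and Klf6 reads (right), for sgNT (blue) and sgCbfb (orange), with 95% Wilson intervals as bars. The Nab2 share is 8.89% and 8.92% in sgNT and 12.2% and 12.5% in sgCbfb, and the Klf4 share is 47.7% and 46.6% in sgNT and 37.8% and 41.7% in sgCbfb.

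Ier2, a gene of 1 exon for a small nuclear protein, lies at chr8:84661331-84662852. It was at 4.17 and 3.90 log2 CPM in sgNT (59 and 48 reads) and at 3.92 and 3.53 in sgCbfb (57 and 35 reads). The sgCbfb replicate 1 library lay just above the lower sgNT library, so the groups overlapped. The difference was -0.31 (standard error 0.23), and it ranged from -0.50 to -0.11 with each library left out in turn. Ier5, whose protein acts with the phosphatase PP2A on the heat-shock factor HSF1, has 1 exon at chr1:155096361-155099636. It was at 6.30 and 6.32 in sgNT (266 and 265 reads) and at 6.15 and 6.18 in sgCbfb (276 and 230 reads). Its groups did not overlap, and the difference was small at -0.14 (standard error 0.10), or 90.5% of the sgNT level. The Ier2 share of the reads of both genes was 18.2% and 15.3% in sgNT and 17.1% and 13.2% in sgCbfb, with overlap.

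Klf4, a factor of gut epithelial differentiation and of reprogramming to pluripotency, had the most negative difference of the 8 with all libraries in. Without sgNT replicate 2, Egr2 (-0.67) and Ier2 (-0.44) had more negative ones. Without sgCbfb replicate 1, Ier2 (-0.50), Egr1 (-0.31) and Nab1 (-0.27) did. Klf4 lies on the minus strand at chr4:55527143-55532466, with 5 exons. It was at 7.51 and 7.53 log2 CPM in sgNT (619 and 615 reads) and at 7.08 and 7.27 in sgCbfb (528 and 490 reads). Both sgCbfb libraries were below sgNT, and they lay further from each other than the sgNT libraries did. The group means were 7.52 ± 0.012 for sgNT and 7.18 ± 0.13 for sgCbfb (SD, n = 2 each), a difference of -0.35 (standard error 0.082), which leaves 78.7%. With single libraries left out it was -0.35 and -0.34 without sgNT replicates 1 and 2, and -0.25 and -0.44 without sgCbfb replicates 1 and 2. Klf6, described as a tumour suppressor, lies on the plus strand at chr13:5861482-5870394, with 4 exons. It was at 7.65 and 7.73 in sgNT (678 and 706 reads) and at 7.80 and 7.75 in sgCbfb (869 and 685 reads). Its groups did not overlap, but the lower sgCbfb library lay above the higher sgNT library by less than the sgNT libraries differed from each other. The difference was 0.088 (standard error 0.073). Within each library, Klf4 made up 47.7% and 46.6% of the reads of both genes in sgNT (95% Wilson intervals 45.0 to 50.4% and 43.9 to 49.3%). It made up 37.8% and 41.7% in sgCbfb (35.3 to 40.4% and 38.9 to 44.5%), below the sgNT shares in both libraries, although the intervals of sgCbfb replicate 2 and sgNT replicate 2 overlapped.

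Among the 17 KLF genes, Klf6 and Klf4 had the highest mean levels over the 4 libraries, 7.73 and 7.35 log2 CPM. The lowest Klf6 library (7.65) was above the highest Klf4 library (7.53), so this pair did not overlap. The next gene, Klf9, had a mean of 7.24. Klf4 (7.51 and 7.53) was above Klf9 (7.36 and 7.41) in the sgNT libraries, while in the sgCbfb libraries the values of Klf4 (7.08 and 7.27) and Klf9 (7.14 and 7.06) overlapped. In all, 11 KLF genes had at least 10 reads in every library, and Klf14 and Klf17 had none. In the wider set of 62 immediate-early genes, which counts Egr1, Egr2, Egr3, Ier2, Ier5, Klf4 and Klf6 among them, Klf6 and Klf4 ranked 6 and 8 by mean level. Ier5 ranked 17, Egr1 38, Ier2 41 and Egr2 55. Nfkbia and Ier3 had the highest mean levels of that set, 9.47 and 9.45.

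**Figure D3:**
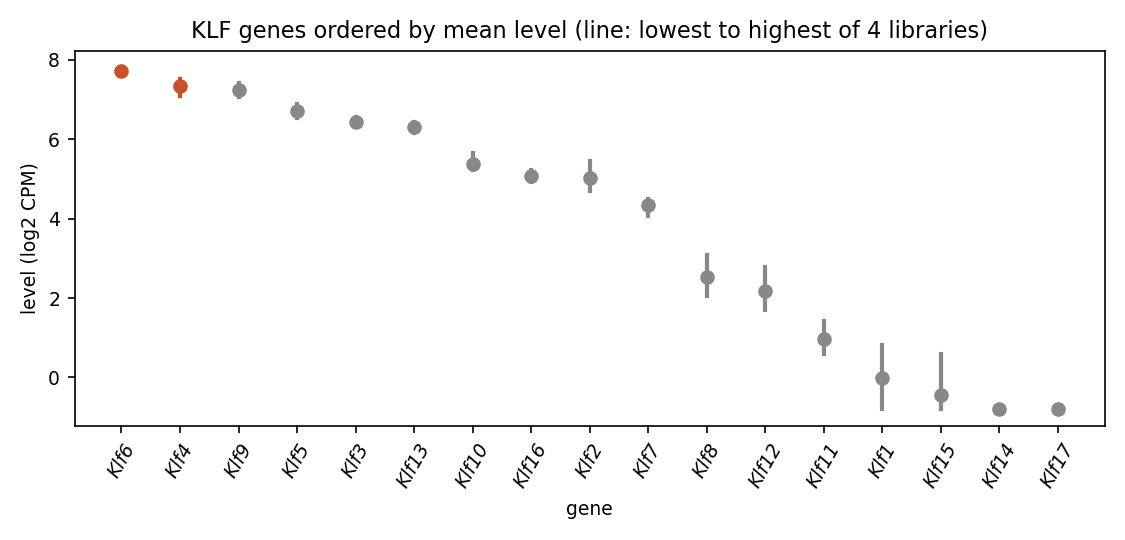
Mean level of the 17 KLF genes over the 4 libraries in log2 CPM (points), with lines from the lowest to the highest library, ordered by mean; Klf6 and Klf4 are in orange. Klf6 (7.73) stands above Klf4 (7.35), whose range overlaps that of Klf9 (7.24), and the genes on the right reach the value of a gene without reads.

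As a group, the 8 genes that passed the filter had 6 negative and 2 positive differences, from -0.35 to 0.27 on the log2 scale. Their median was -0.19, beside 0.039 over all tested genes, and it describes the genes that passed the filter and not all 9. For 6 of the 8 the groups did not overlap, with sgCbfb below sgNT for Egr1, Nab1, Ier5 and Klf4 and above it for Nab2 and Klf6. Over all tested genes the groups did not overlap for 44.1%. In the limma fit over all genes 1 of the 8, Klf4, was past the threshold, beside 2.83% of all tested genes in either direction. It was not past the threshold with any single library left out (differences from -0.44 to -0.25), with quantile normalization, with no filter on low values, without a trend or at a threshold of 0.01. Since the genes were chosen with this contrast known, nothing is read from these counts and shares.

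**Figure D4:**
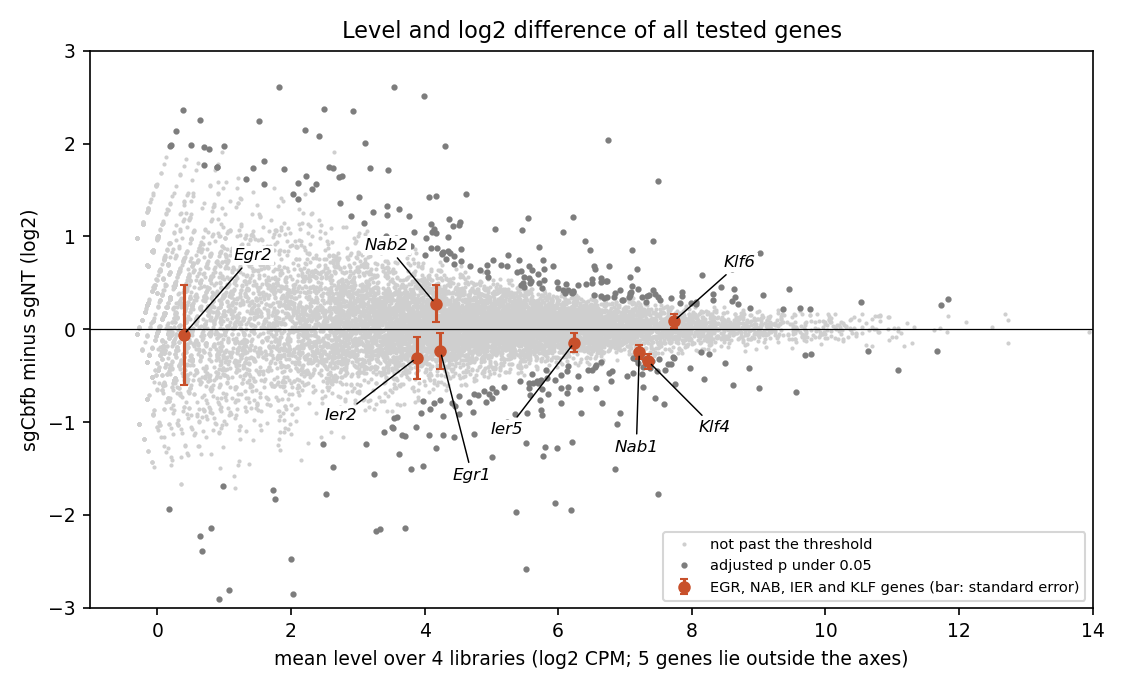
Mean level over the 4 libraries in log2 CPM (horizontal axis) against the difference of sgCbfb from sgNT on the log2 scale (vertical axis) for the 12207 tested genes, of which 5 lie outside the axes, in pale grey, or in dark grey at an adjusted p under 0.05. The 8 genes in orange, with standard errors as bars, lie between -0.35 and 0.27, and the bars are widest for Egr2 and narrowest for Klf6.

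Genes around this circuit were taken from lists drawn up from general knowledge of immediate-early genes, of targets of EGR1 and the serum response, and of their regulators and partners. The lists were chosen with earlier results of these data known, so the counts and medians below are a description and not independent support. Among all tested genes, 1.57% were higher and 1.25% lower in sgCbfb cells. Of 55 further immediate-early genes 49 were tested, and 2 rose, 4 fell and 43 did not pass the test. Their median difference was 0.014, beside 0.039 over all tested genes, and 26 were positive and 23 negative. Ier3, a stress-induced survival gene of the IER group, rose by 0.43 log2 units (SE 0.057, limma, adjusted p = 2.07e-05), from 2109 and 1946 reads in sgNT to 3154 and 2612 in sgCbfb. Dusp2, a phosphatase that switches off MAP kinases, rose by 0.87 (SE 0.19, limma, adjusted p = 0.0075) on 55 and 58 against 103 and 117 reads. The difference of Dusp2 was not past the threshold without sgNT replicate 1 (0.82) and without sgCbfb replicate 1 or 2 (1.10 and 0.63).

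Sgk1, a serum- and glucocorticoid-induced kinase, fell by 0.79 log2 units (SE 0.11, limma, adjusted p = 5.55e-05), from 311 and 271 reads in sgNT to 202 and 152 in sgCbfb. Zfp36l2, which destabilises mRNAs with AU-rich ends, fell by 0.42 (SE 0.063, limma, adjusted p = 0.000148). Jun, a subunit of the AP-1 factor, fell by 0.37 (SE 0.073, limma, adjusted p = 0.00307), and Btg1, an antiproliferative gene, by 0.29 (SE 0.081, limma, adjusted p = 0.0485). The call for Jun was lost without sgNT replicate 1 (-0.37) and without sgCbfb replicate 1 or 2 (-0.41 and -0.33). Ier3, Sgk1 and Zfp36l2 were past the threshold without either sgNT library and not without either sgCbfb library, with differences from 0.39 to 0.48, from -0.88 to -0.70 and from -0.49 to -0.35 with single libraries left out. Btg1 lost its call with any single library left out, with differences from -0.34 to -0.25. With quantile normalization Dusp2, Jun and Btg1 were not past the threshold (limma, adjusted p = 0.196, 0.0584 and 0.16). Members of the list thus differed in both directions, and the summed level of the 55 genes was 4332 and 4344 CPM in sgNT and 4312 and 4322 in sgCbfb.

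Of 34 genes listed as targets of EGR1 or of the serum response, a list shortened by 1 gene after the results were known, 29 were tested, and 2 rose, 3 fell and 24 did not pass the test. Their median difference was 0.025, beside 0.039 over all tested genes, and the evidence behind the list varies from gene to gene. Cdkn1a, the cyclin-dependent kinase inhibitor p21, rose by 0.54 log2 units (SE 0.098, limma, adjusted p = 0.00146), from 246 and 256 reads in sgNT to 401 and 366 in sgCbfb. Slc9a3r1, a scaffold protein gene, rose by 0.74 (SE 0.20, limma, adjusted p = 0.0445), and without sgNT replicate 1 its difference was 0.42 and not past the threshold. It was also not past the threshold without sgCbfb replicate 1 or 2 (0.83 and 0.65). Ptges, which makes prostaglandin E, fell by 1.21 (SE 0.11, limma, adjusted p = 1.22e-07), from 422 and 337 reads to 176 and 163. Vcl, the adhesion protein vinculin and a target of SRF, fell by 0.64 (SE 0.094, limma, adjusted p = 0.000105). Ereg, a ligand of the EGF receptor, fell by 0.72 (SE 0.18, limma, adjusted p = 0.0242), a call that was lost with any single library left out, with differences from -0.84 to -0.60. Cdkn1a, Ptges and Vcl were past the threshold without either sgNT library and not without either sgCbfb library. With single libraries left out their differences ran from 0.46 to 0.62, from -1.36 to -1.07 and from -0.68 to -0.60. With quantile normalization the calls for Cdkn1a, Slc9a3r1 and Ereg were lost (limma, adjusted p = 0.0925, 0.307 and 0.142), and that for Slc9a3r1 also with ribosomal RNA genes left out of the totals (limma, adjusted p = 0.0842).

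None of the regulators, partners and related factors that follow was past the threshold in the limma fit. An unadjusted p under 0.05 was reached by 14.9% of all tested genes (1820 of 12207), against which the counts for these lists are to be read. Of 27 genes for SRF partners, MAP kinases and coactivators, 27 were tested, with 4 at an unadjusted p under 0.05 and a median difference of 0.061. Of 13 NuRD subunits, the complex that NAB proteins recruit, 13 were tested, with 3 at an unadjusted p under 0.05 and a median of 0.096, beside 0.039 over all tested genes. Of these NuRD genes 10 had positive and 3 negative differences, and their summed level was 1893 and 1928 CPM in sgNT and 2036 and 2050 in sgCbfb. Of 23 other KLF, SP and related factors 15 were tested, with 3 at an unadjusted p under 0.05 and a median of 0.039. Klf9, the neighbour of Klf4 in level, was at 7.36 and 7.41 log2 CPM in sgNT and at 7.14 and 7.06 in sgCbfb, with a difference of -0.29 (SE 0.081, limma, adjusted p = 0.0537). It was past the threshold in 6 of the 14 alternative settings, Crtc2 in 2 and Mapk3 in 1, and these 3 genes were named after their values were seen.

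Heat-shock genes, which respond to handling of cells as immediate-early genes do, were followed beside them. Of 11 such genes 9 were tested, none passed the threshold in limma, and 1 had an unadjusted p under 0.05, beside 14.9% of all tested genes. Of the 9 tested, 5 had a positive and 4 a negative difference. Their summed level was 4133 and 4297 CPM in the sgNT libraries and 4049 and 4355 in the sgCbfb libraries. The groups overlapped in this sum, which rests most on the genes of highest level. Hspd1, the mitochondrial chaperonin, was the highest, at 10.25 log2 CPM in sgNT and 10.24 in sgCbfb. Hspa1a, an inducible HSP70 gene, had 0 reads. Hspa1b, its near-identical neighbour, had 7 and 14 reads in sgNT and 27 and 15 in sgCbfb, and reads could have been split between this pair. The difference of Hspa1b was 0.82 (SE 0.38, limma, unadjusted p = 0.0412). That of Dnajb1, a further heat-shock gene, was 0.21 (SE 0.11). For both, the sgCbfb libraries were above the sgNT libraries without overlap.

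**Figure D5:**
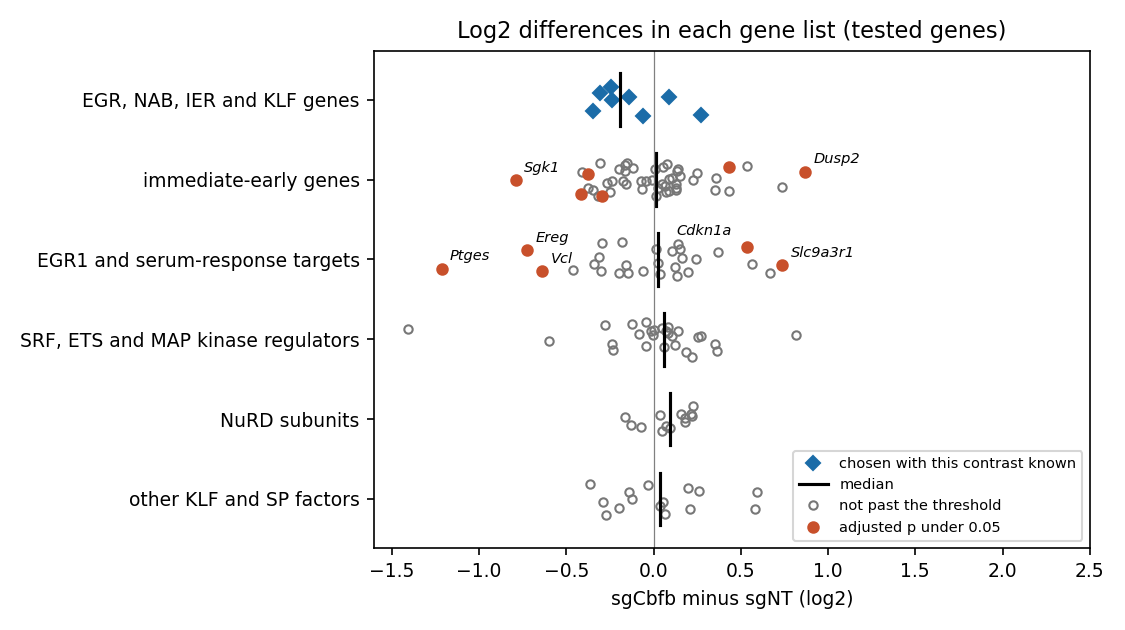
Difference of sgCbfb from sgNT on the log2 scale (horizontal axis) for each tested gene of the 6 gene groups (rows), with black lines at the medians. Filled orange points are past an adjusted p of 0.05. The 8 genes in the top row (blue) were chosen with this contrast known, and the lists below it with earlier results of these data known. Among the filled points Dusp2 lies furthest to the right at 0.87 and Ptges furthest to the left at -1.21, while the medians of the 5 lists below the top row lie between 0.014 and 0.096.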

How the data were processed

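RNA of MC38 cells was measured by 3′ mRNA sequencing in 2 sgNT and 2 sgCbfb libraries. Per the submitters' processing notes, the tools were cutadapt 1.9, HISAT2 2.1.0 and featureCounts 2.0.1. The annotation release, the use of strand and the handling of reads shared by several genes are not given in the sources used here. The authors deposited log2 CPM values with a prior count of 2, and a further library of each group was left out by the authors for RNA quality. Whole reads were recovered from these values (within 0.1 of a read for nearly all), which gave totals from 3189035 to 3907936 and, with 2 libraries a group, limit the precision of genes with few reads.

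The study names voom and limma. Here limma 3.58.1 (R 4.3.3, mean-variance trend, two-sided) was run on the deposited log2 values of the 12207 genes at 0 or more in at least 2 libraries, with Benjamini-Hochberg adjustment over all of them and a threshold of 0.05. An exact permutation test of 2 against 2 libraries cannot go below p = 0.333 and was not used. Standard errors of differences come from this fit, and counting errors and Wilson intervals from the recovered reads (Python 3.11.15, statsmodels 0.14.6), covering counting error only. Counts of libraries of the same group differed beyond sampling noise (chi-square per degree of freedom 1.58 in sgNT and 2.15 in sgCbfb). This does not show whether the libraries came from separate cultures.

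The 9 genes and all lists were chosen with earlier results of these data known. The genes named beside them were Cbfb, list genes past the threshold (at most 4 a direction by smallest p), up to 3 marker or heat-shock genes by mean level, and the 3 genes most like Egr1, with others named where a count called for it. A gene originally on the list of EGR1 and serum-response targets was taken off it after the results were known, for a reason other than its value, and is not reported here. Counts and the median for that list describe the genes left. Positions are from GENCODE M21 (GRCm38) and promoter windows from RefSeq (GRCm38.p6). Alternatives changed the filter, scaling, variance model, block, threshold and libraries used.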

Additional observations from a re-analysis of the deposited data

How the results depend on the processing

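Over 14 alternatives (13 for Egr2, which is not tested at a minimum of 5 CPM), the differences of the 8 genes kept their sign but for Egr2, which was positive without WT replicate 1 (0.55) or CbfbKO replicate 1 (0.18). Their ranges were -0.31 to -0.17 for Egr1, -0.67 to 0.55 for Egr2, -0.50 to -0.11 for Ier2, -0.28 to -0.23 for Nab1, 0.23 to 0.29 for Nab2, -0.19 to -0.13 for Ier5, -0.44 to -0.25 for Klf4 and 0.046 to 0.13 for Klf6. Against 192 higher and 153 lower genes, no filter on low values gave 2 and 53, quantile normalization 39 and 44, limma without a trend 0 and 0 (1461 genes at an unadjusted p under 0.05), and a threshold of 0.01 gave 103 and 97. A minimum of 5 CPM gave 300 higher genes, and voom with median-ratio scaling 242 lower genes. With single libraries left out, the higher genes numbered 0 to 115 and the lower genes 0 to 86. Of the 8 genes, 1 (Klf4) was past the threshold, beside 2.83% of all tested genes. None of the 8 was with no filter, quantile normalization, no trend or the threshold of 0.01. In voom with median-ratio scaling 2 were (Klf4 and Nab1), beside 174 higher and 242 lower of all 12207 tested genes. The 8 were chosen with this contrast known, so nothing is read from these counts. List genes past the threshold were 4 higher and 7 lower, against 0 and 0 with no filter, 1 and 4 with quantile normalization and 0 and 0 without a trend. With single libraries left out they were 0 to 4 higher and 0 to 5 lower. The replicate block gave 320 higher and 215 lower genes, but the labels do not say what a replicate number shares, and deviations of same-numbered libraries had a correlation of -0.0042. The cause of these shifts was not tested. The second pseudocount was planned for linear values only and was not run. Depth limits Egr2 (1 to 5 reads a library) and Egr3 (0 reads) most.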

Other observations

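The subunits of AP-1 were unequal in level. Fos and Fosb had mean levels of 0.97 and 0.91 log2 CPM and ranked 53 and 54 of 62 genes, below Egr1 at 4.24, while Fosl1 (7.88, ranked 4) and Jun (7.69, ranked 7) were above it. Within the IER group the order of mean levels was Ier3 (9.45), Ier5 (6.24), Ier5l (4.68) and Ier2 (3.88). The ranges over libraries of Ier5 and Ier5l did not overlap. The order of Nab2 and Egr1 differed between groups, with Egr1 above Nab2 in both sgNT libraries and Nab2 above Egr1 in both sgCbfb libraries. It rests on 65 and 69 against 53 and 53 reads in sgNT and on 69 and 51 against 75 and 61 reads in sgCbfb, gaps of about the size of counting error, and the levels of the 2 genes are not ordered beyond it.

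The genes with the pattern over the 4 libraries most like that of Egr1 were Msl3, Fbxo42 and Kdelc1. Their profiles, centred on the mean, differed from that of Egr1 by a root mean square of 0.010, 0.014 and 0.015 on the log2 scale. The search covered 6892 genes with a mean of at least 4, and 851 of them were within 0.1, so with 4 libraries such likeness is common.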
